A study of Saccharomyces cerevisiae with 12 samples.

Results

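The messenger RNA of SWI3 S237A, a strain of Saccharomyces cerevisiae labelled with serine changed to alanine in Swi3, a subunit of a chromatin remodeller, was compared with that of RPD3 S418A, which carries alanine in place of a serine of the histone deacetylase Rpd3. The members are the 3 libraries labelled SWI3 S237A (replicates 2, 10 and 18) and the 3 labelled RPD3 S418A (replicates 3, 11 and 19), 6 of the 12 libraries of the study. The other 6 are RPD3 KO, labelled as lacking RPD3 (replicates 4, 12 and 20), and wild type S288c (replicates 1, 9 and 17), and they did not enter the comparison. All 12 libraries are labelled as grown in synthetic defined medium, and the design text gives harvest at an OD600 of 0.4 for all samples. A treatment note shared by all samples also mentions caffeine for part of them without saying which, so that exposure could not be checked here. Each library was made from 600 ng of RNA with a stranded kit for polyadenylated RNA. The labels give no clone numbers and leave it unsaid whether libraries stem from cultures grown apart, so p-values measure the spread between these libraries, which may be technical.

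SWI/SNF is a remodelling complex that uses ATP to slide or evict nucleosomes and is recruited to promoters by activators. Swi3 is one of its core subunits, and the complex is known for its part in the induction of HO, SUC2, the acid phosphatase genes and heat shock genes. Rpd3 is the catalytic subunit of a large and a small histone deacetylase complex, known in yeast for repression of meiotic genes through Ume6 and for a part in the response of ribosome biogenesis and stress genes to nutrients. Swi3 and Rpd3 therefore belong to different complexes that act at partly shared promoters.

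The mutated serines are shown as they stand in the RefSeq R64 reference, with the codon in capitals, because the counts themselves do not show the substitutions. In both genes the reference codon at the labelled position encodes serine. SWI3 lies on the minus strand of chromosome X (92053 to 94530) and encodes 825 residues. RPD3 lies on the minus strand of chromosome XIV (18001 to 19302) and encodes 433 residues, so that the serine of S418A is close to the end of the protein. Each line gives the coding strand with 30 bases on either side of the codon.
SWI3, codon of S237A, chrX:93790-93852: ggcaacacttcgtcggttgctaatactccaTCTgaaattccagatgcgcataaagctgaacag
RPD3, codon of S418A, chrXIV:18019-18081: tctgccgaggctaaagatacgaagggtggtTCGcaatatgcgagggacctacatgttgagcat

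The strains differed across most of the transcriptome. The low-count filter kept 6252 of 6713 targets for edgeR's quasi-likelihood test, and 4236 of those (67.8%) passed at a Benjamini-Hochberg adjusted p under 0.05. In SWI3 S237A 2095 targets were higher (33.5% of those tested) and 2141 were lower (34.2%) than in RPD3 S418A. A gene list with shares near these in each direction therefore differs little in its counts from all tested targets. A difference of at least 2-fold was found for 619 higher targets (9.9%) and 506 lower ones (8.09%), and one of at least 4-fold for 132 (2.11%) and 153 (2.45%). The median log2 fold change over all tested targets was -0.01, with quartiles at -0.42 and 0.43 and a median standard error of 0.09. The 3 libraries of SWI3 S237A did not overlap those of RPD3 S418A for 4602 targets (73.6%).

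Total counts ran from 18.3 to 27 M per library, and levels are given as CPM (counts scaled to library size), with TMM scaling over the 12 libraries. Mating-type genes were those of alpha cells: the alpha factor gene MF(ALPHA)1 had 1287, 1283 and 1272 CPM in SWI3 S237A and 944, 963 and 955 CPM in RPD3 S418A, and the a-factor gene MFA1 had at most 0.169 CPM in these libraries. No counts were listed for MET17 and CAN1 in any library, so MET17 is missing from the tested members of the sulfur genes. The 3 libraries of RPD3 S418A were less alike than those of SWI3 S237A for some gene groups, as given below for ribosome biogenesis. Wild type means lay nearer to RPD3 S418A than to SWI3 S237A for 3828 of the 4236 targets that passed, and for 1074 of the 1125 that also differed at least 2-fold. Wild type levels below are a description, since no wild type library was tested here against the mutants.

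RPD3 itself was lower in SWI3 S237A, at 88.3, 92.3 and 91 CPM in replicates 2, 10 and 18, against 113, 115 and 125 CPM in RPD3 S418A replicates 3, 11 and 19. The libraries did not overlap, and the log2 fold change was -0.37 ± 0.07 (edgeR adjusted p = 0.000839). SWI3 had 87.4, 88.2 and 84.5 CPM in SWI3 S237A and 81.5, 80.7 and 69.8 CPM in RPD3 S418A, and its difference did not pass (log2 0.17 ± 0.08, edgeR adjusted p = 0.0696). It passed with scaling by total counts alone (log2 0.20, edgeR adjusted p = 0.0449) and without RPD3 S418A replicate 3 (log2 0.21, edgeR adjusted p = 0.0359). A two-sided exact permutation test of each transcript gave p = 0.1, the smallest that 20 assignments of 3 and 3 libraries allow. RPD3 stood at 103, 109 and 112 CPM in the wild type libraries and SWI3 at 73.6, 81.7 and 88.8 CPM.

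Genes of the 2 complexes differed by less than 2-fold, with 1 exception. Of 14 Rpd3 complex genes 1 was higher and 6 were lower, with a median log2 of -0.17, beside 33.5% higher and 34.2% lower of all tested targets. UME6, which encodes the DNA-binding protein that brings Rpd3 to meiotic genes, was the higher one, at 88.5, 91.2 and 97.6 CPM in SWI3 S237A and 53.2, 56 and 43.3 CPM in RPD3 S418A (log2 0.87 ± 0.10). ASH1, whose product represses HO in daughter cells, was lower at 69.6, 69.8 and 68.2 CPM in SWI3 S237A, against 132, 133 and 114 CPM in RPD3 S418A (log2 -0.86 ± 0.08). Of 12 SWI/SNF genes 5 were higher and 4 lower. The exception was SWI1, which encodes a large subunit, at 43.1, 34.5 and 37.7 CPM in SWI3 S237A and 17.5, 17.5 and 11.1 CPM in RPD3 S418A (log2 1.32 ± 0.16, edgeR adjusted p = 5.78e-05). SNF2, the ATPase gene, was also higher (log2 0.68 ± 0.10), and SNF11 was lower (log2 -0.69 ± 0.10).

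Heat shock and general stress genes had the lowest medians of the gene lists in SWI3 S237A. Of 30 tested chaperone genes under the heat shock factor Hsf1, 28 were lower and 0 higher, beside 34.2% and 33.5% of all tested targets, and 24 were lower by at least 2-fold. Their median log2 fold change was -2.40, against -0.01 over all tested targets. In the list of 36 genes ascribed to the general stress activators Msn2 and Msn4, 33 were lower and 3 higher, with a median log2 of -3.20.

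HSP26, a small heat shock protein that holds unfolded proteins, fell furthest among genes with a name, a mean of at least 10 CPM and at most 5% of 31-base words shared with other genes, a gauge of reads that fit several genes. It had 6.8, 6.61 and 6.49 CPM in the 3 SWI3 S237A libraries and 588, 684 and 984 CPM in the 3 RPD3 S418A libraries, a 113-fold lower level in SWI3 S237A (log2 -6.82 ± 0.22, edgeR adjusted p = 1.61e-08). A condition for choosing HSP26 was no overlap between the libraries of the strains, which 73.6% of all tested targets met. HSP104, the disaggregase, had 317, 336 and 336 CPM in SWI3 S237A, against 6469, 6260.4 and 6128 CPM in RPD3 S418A (log2 -4.25 ± 0.07). HSP82, which encodes heat-inducible Hsp90, stood at 134, 135 and 137 CPM in SWI3 S237A and 3678, 3311 and 3148 CPM in RPD3 S418A (log2 -4.63 ± 0.08). Its partner HSC82, the constitutive Hsp90, differed less (log2 -0.95), and reads shared between the pair make both values uncertain. The Hsp110 gene SSE1 and the Hsp40 gene APJ1 were the 2 members that did not pass.

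The list of genes ascribed to Msn2 and Msn4 held 5 of the 10 largest falls. HSP12, a membrane-stabilising protein, had 1.6, 1.34 and 1.5 CPM in SWI3 S237A and 98.8, 126 and 181 CPM in RPD3 S418A (log2 -6.50 ± 0.27). HSP30, a plasma membrane regulator of the proton pump, had 14.2, 14.5 and 15.2 CPM in SWI3 S237A, against 1452, 1304 and 1111 CPM in RPD3 S418A (log2 -6.45 ± 0.12). Both genes were chosen on the condition that the libraries of the strains did not overlap, which held for 73.6% of all tested targets. RTC3 (log2 -6.20 ± 0.11), TMA10 (log2 -6.07 ± 0.13) and DDR2 (log2 -5.88 ± 0.29) were the other three. The 3 members that were higher in SWI3 S237A were NCE103, which encodes carbonic anhydrase (log2 1.37 ± 0.13), GRE1 (log2 0.56) and PHM7 (log2 0.38). MSN4 itself was lower (log2 -1.46).

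All 18 tested genes of trehalose and glycogen metabolism were lower in SWI3 S237A, beside 34.2% of all tested targets. Their median log2 was -1.94. Glycogen phosphorylase GPH1 had 18.9, 20.4 and 22.5 CPM in SWI3 S237A, against 1248, 1243 and 1450.3 CPM in RPD3 S418A (log2 -5.99 ± 0.11). The glycogen synthase genes GSY2 (log2 -4.39 ± 0.10) and GSY1 (log2 -4.10 ± 0.09) fell together with it, and so did NTH1, which encodes neutral trehalase (log2 -1.99 ± 0.06). Synthesis and breakdown genes of both storage sugars were thus in the same direction.

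**Figure D1:**
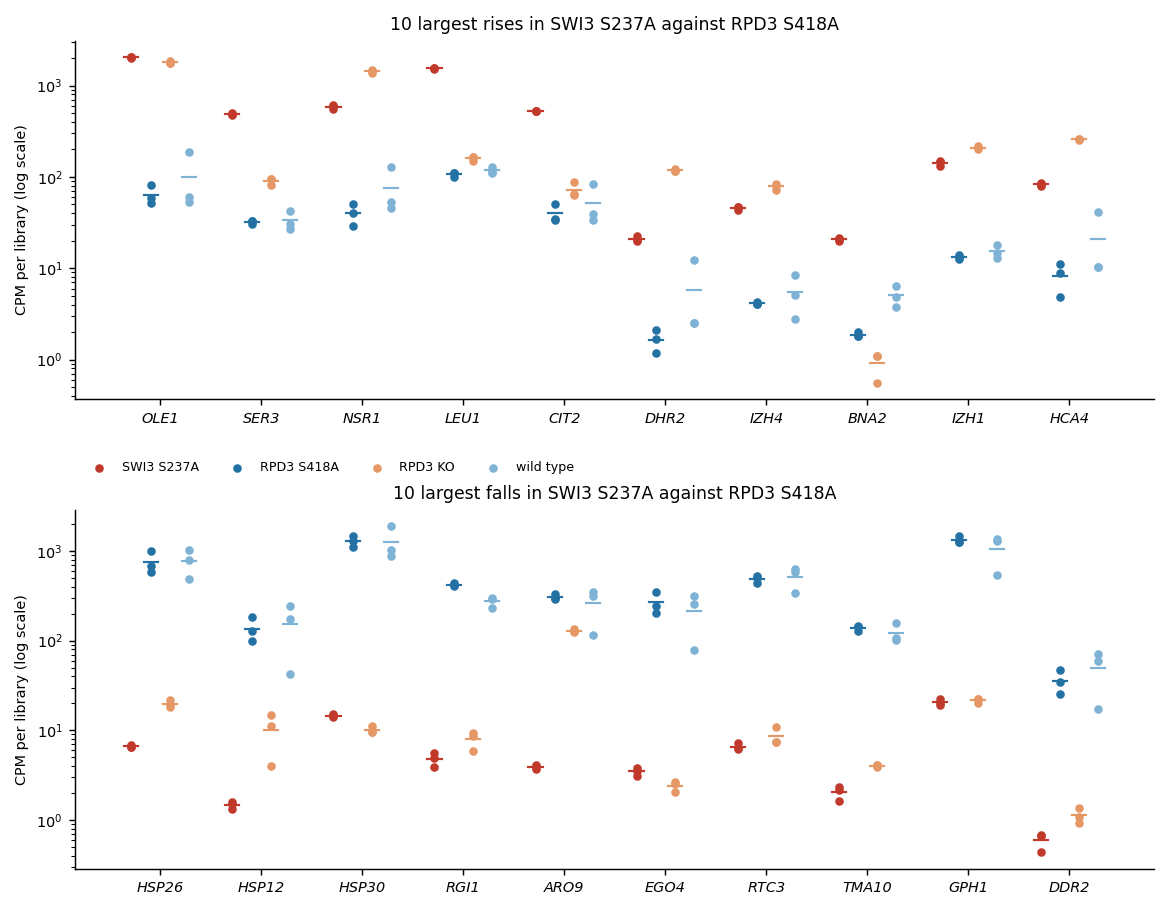
CPM of the genes with the 10 largest rises (top) and 10 largest falls (bottom) in SWI3 S237A against RPD3 S418A, on a log scale; each point is 1 library and each bar the mean of 3. No overlap between the red SWI3 S237A and the dark blue RPD3 S418A points was a condition for choosing these 20 genes. Of all tested targets 73.6% did not overlap. RPD3 KO is orange and wild type light blue.

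Ribosome biogenesis genes had the highest median of the gene lists drawn here. Of 137 tested genes 136 were higher in SWI3 S237A and 1, RRP7, was lower, with a median log2 of 1.38 and 98 genes at least 2-fold higher. Over all tested targets 33.5% were higher, 34.2% were lower and 9.9% were at least 2-fold higher. NSR1, a nucleolar protein of rRNA processing, had 553, 594 and 610.3 CPM in SWI3 S237A and 50.3, 40.6 and 29 CPM in RPD3 S418A (log2 3.88 ± 0.17, edgeR adjusted p = 1.23e-07). The dubious frame YGR160W, which is a separate target beside NSR1 and was higher too (log2 3.68), can share its reads. Neighbouring frames of this kind cannot be told apart without a stated strand setting. DHR2, an RNA helicase of small subunit assembly, had 22.4, 19.9 and 20.3 CPM in SWI3 S237A, against 2.12, 1.67 and 1.19 CPM in RPD3 S418A (log2 3.64 ± 0.17). A second helicase gene, HCA4, had 86.5, 80.1 and 81.6 CPM in SWI3 S237A and 11.2, 8.79 and 4.85 CPM in RPD3 S418A (log2 3.31 ± 0.22). YTM1, a factor of large subunit assembly, had 103, 106 and 102 CPM in SWI3 S237A, against 22.2, 19.5 and 18 CPM in RPD3 S418A (log2 2.39 ± 0.09). SWI3 S237A was above RPD3 S418A in every library for these 4 genes, and 73.6% of all tested targets did not overlap either. For NSR1, DHR2 and HCA4, no overlap was a condition for choosing them. RRP7 had 67.4, 57.1 and 58.7 CPM in SWI3 S237A and 81.1, 73.2 and 68.8 CPM in RPD3 S418A, a difference close to the spread between libraries (log2 -0.28 ± 0.09, edgeR adjusted p = 0.0188), and RRP7 did not pass with total counts alone or without SWI3 S237A replicate 10 or 18 or RPD3 S418A replicate 11.

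RNA polymerases I and III, which make ribosomal and transfer RNA, followed the same direction: 23 of 24 tested subunit and factor genes were higher and 0 were lower, with a median log2 of 0.94. These counts and those of translation factors below stand beside 33.5% higher and 34.2% lower of all tested targets. The largest subunits of RNA polymerase I, RPA190 (log2 2.41) and RPA135 (log2 2.12), differed most. RPO31, the largest subunit of RNA polymerase III, had 123, 117 and 110.2 CPM in SWI3 S237A and 53.7, 46.4 and 44.8 CPM in RPD3 S418A (log2 1.28 ± 0.08). Of 36 translation factor genes 28 were higher and 4 lower (median log2 0.58), among them PAB1, the poly(A)-binding protein (log2 0.94 ± 0.09), and FUN12, which joins the ribosomal subunits at initiation (log2 0.91 ± 0.08). ANB1, the hypoxic form of eIF5A, was lower (log2 -2.28 ± 0.09).

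Of 138 tested ribosomal protein genes 23 were higher, 48 were lower and 67 did not pass, with a median log2 of -0.11. The share that was lower is near the 34.2% of all tested targets, and the share that was higher is below their 33.5%. RPP0, the stalk protein gene, was the highest at 3527, 3934 and 3728 CPM in SWI3 S237A, against 2405, 2253 and 2102 CPM in RPD3 S418A (log2 0.74 ± 0.07). RPS28B was lower (log2 -0.81 ± 0.06). More than 5% of the 31-base words of 78 of these genes occur in other genes, so the split between paralogs is uncertain.

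The level of the ribosome biogenesis genes varied among the RPD3 S418A libraries. As a median log2 deviation from the mean of the 6 libraries, these genes stood at 0.78, 0.70 and 0.66 in SWI3 S237A replicates 2, 10 and 18. In RPD3 S418A replicates 3, 11 and 19 they stood at -0.47, -0.68 and -0.98. The spread within RPD3 S418A was wider than within SWI3 S237A, yet smaller than the gap between the strains. The respiratory genes described next spread in the opposite direction, at -0.45, -0.47 and -0.45 in SWI3 S237A replicates 2, 10 and 18, against 0.24, 0.37 and 0.64 in RPD3 S418A replicates 3, 11 and 19.

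**Figure D2:**
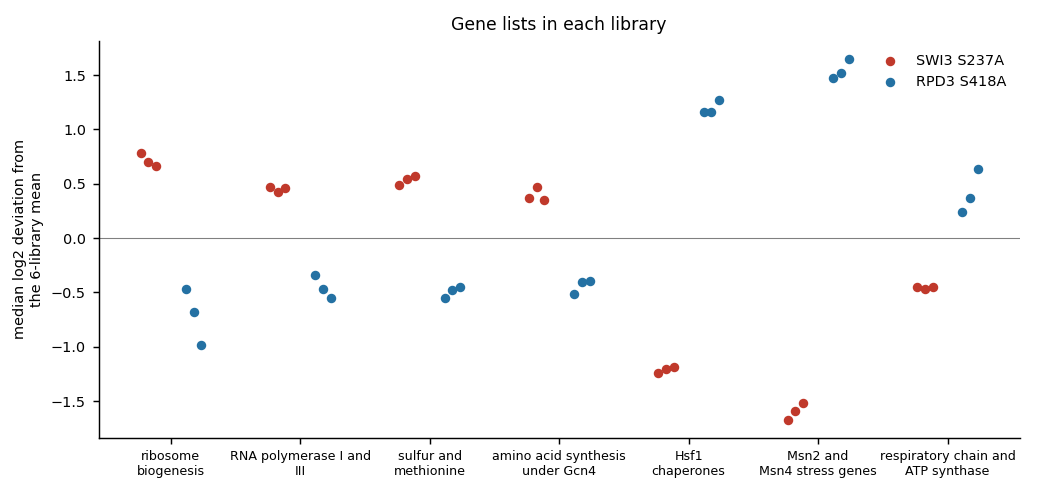
Median log2 deviation of 7 gene lists from the mean of the 6 libraries, one point per library, with replicates 2, 10 and 18 of SWI3 S237A (red) left of replicates 3, 11 and 19 of RPD3 S418A (blue). The strains do not overlap in these 7 lists, which were picked from a longer set with results known. In other lists they do, such as glycolysis and fermentation (-0.10 to 0.05 in SWI3 S237A, -0.02 to 0.09 in RPD3 S418A). Among the 7, RPD3 S418A spreads most in ribosome biogenesis, from -0.47 to -0.98.

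Respiratory genes were lower in SWI3 S237A. Of 41 tested genes of the respiratory chain and ATP synthase 35 were lower and 0 higher (median log2 -0.90). HAP4, the limiting subunit of the activator of respiration genes, had 19.6, 18.5 and 19.6 CPM in SWI3 S237A, against 134, 116 and 107 CPM in RPD3 S418A (log2 -2.62 ± 0.09). COX5B, a subunit of cytochrome c oxidase made at low oxygen, had 36.2, 38.2 and 34.8 CPM in SWI3 S237A and 279.7, 277 and 311 CPM in RPD3 S418A (log2 -2.98 ± 0.08). Tricarboxylic acid cycle genes were divided, with 13 of 24 lower and 6 higher, beside 34.2% and 33.5% of all tested targets. The mitochondrial enzymes MDH1 (log2 -1.88 ± 0.13), SDH2 (log2 -1.80 ± 0.11), CIT1 (log2 -1.31 ± 0.07) and ACO1 (log2 -1.23 ± 0.07) were lower. The peroxisomal citrate synthase CIT2 was higher, at 528, 533 and 529 CPM in SWI3 S237A and 50.7, 34.9 and 34.2 CPM in RPD3 S418A (log2 3.74 ± 0.15).

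The counts of hexose transport, glycolysis and glucose-repressed genes stand beside 33.5% higher and 34.2% lower of all tested targets. Among 20 tested genes of hexose transport and sensing 9 were higher and 5 lower. The low-affinity glucose transporter HXT3 had 2524, 2585 and 2670.5 CPM in SWI3 S237A and 859, 899 and 931 CPM in RPD3 S418A (log2 1.54 ± 0.06), and HXT1 was higher too (log2 2.04 ± 0.07). HXT7, a high-affinity transporter, had 15.3, 17.7 and 18.3 CPM in SWI3 S237A, against 3295, 3014 and 3908 CPM in RPD3 S418A (log2 -7.63 ± 0.14). HXT7 shares 95.7% of its 31-base words with other genes. HXT6 is its near-identical neighbour and was lower too (log2 -4.82), and the values of that pair cannot be separated. In glycolysis and fermentation 10 of 27 genes were higher and 12 lower, near the 33.5% and 34.2% of all tested targets. GPP1 and GPP2 encode 2 forms of glycerol phosphatase and went opposite ways, GPP1 higher (log2 2.01 ± 0.08) and the stress-inducible GPP2 lower (log2 -1.93 ± 0.10). Of 30 glucose-repressed genes 13 were higher and 4 lower, with a median log2 of 0.21, which was 0.04 with a filter of at least 10 CPM.

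Genes of amino acid and sulfur metabolism were mostly higher in SWI3 S237A, beside 33.5% higher and 34.2% lower of all tested targets. Of 51 tested amino acid synthesis genes under the activator Gcn4, 43 were higher and 2 lower (median log2 0.82). LEU1, isopropylmalate isomerase, had 1551, 1570.4 and 1517 CPM in SWI3 S237A and 111, 111 and 100.5 CPM in RPD3 S418A (log2 3.85 ± 0.07, edgeR adjusted p = 3.24e-10). The branched-chain transaminase gene BAT1 (log2 2.35 ± 0.07) and LYS2 of lysine synthesis (log2 1.99 ± 0.09) followed. HIS4 was lower (log2 -0.97 ± 0.07). Among 31 sulfur and methionine genes 24 were higher and 5 lower (median log2 1.09). MET3, ATP sulfurylase, the first step of sulfate assimilation, had 362, 353 and 343 CPM in SWI3 S237A, against 48.1, 48.3 and 54.3 CPM in RPD3 S418A (log2 2.82 ± 0.08). MET6, methionine synthase, had 2585, 2613 and 2535 CPM in SWI3 S237A and 665, 609.9 and 593 CPM in RPD3 S418A (log2 2.06 ± 0.07). RPD3 KO had 34.5, 33 and 32 CPM of MET3 and wild type 46.7, 42.5 and 46.5 CPM, so both lay beside RPD3 S418A.

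Purine, sterol and nitrogen-repressed genes had more members higher than lower, beside 33.5% higher and 34.2% lower of all tested targets. Of 21 tested purine and IMP dehydrogenase genes 16 were higher and 2 lower (median log2 0.98), with HPT1, the purine salvage enzyme, at log2 1.92 ± 0.11. Of 28 sterol genes 24 were higher and 2 lower (median log2 0.70), and squalene epoxidase ERG1 had 794, 797 and 822 CPM in SWI3 S237A, against 252, 226 and 229.7 CPM in RPD3 S418A (log2 1.78 ± 0.07). Of 34 nitrogen-repressed genes 23 were higher and 8 lower (median log2 0.44), with arginase CAR1 at log2 2.09 ± 0.09 and the peptide transporter PTR2 at log2 -2.06 ± 0.13.

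Of 30 lipid genes 12 were higher and 10 lower, near the 33.5% and 34.2% of all tested targets. The lipid genes held the largest rise among genes with a name, a mean of at least 10 CPM and at most 5% shared words. OLE1 (chromosome VII, 398628 to 400160), the only fatty acid desaturase of this yeast, had 2043, 2011 and 2057 CPM in SWI3 S237A and 80.9, 59.1 and 51.9 CPM in RPD3 S418A, a 32-fold difference (log2 5.0 ± 0.16, edgeR adjusted p = 8.89e-09). RPD3 KO lay near SWI3 S237A at 1785, 1861 and 1757 CPM, and wild type had 189.6, 60.3 and 52.8 CPM. MGA2, which encodes a membrane-bound activator of OLE1, was higher (log2 1.62 ± 0.09), while the gene of the related activator, SPT23, did not pass (log2 0.19). The acyl-CoA synthetase gene FAA4 was higher (log2 3.27 ± 0.08) and FAA1 was lower (log2 -2.17 ± 0.06), and 2 methyltransferase genes of phosphatidylcholine synthesis, CHO2 (log2 -2.38) and OPI3 (log2 -1.91), were lower.

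**Figure D3:**
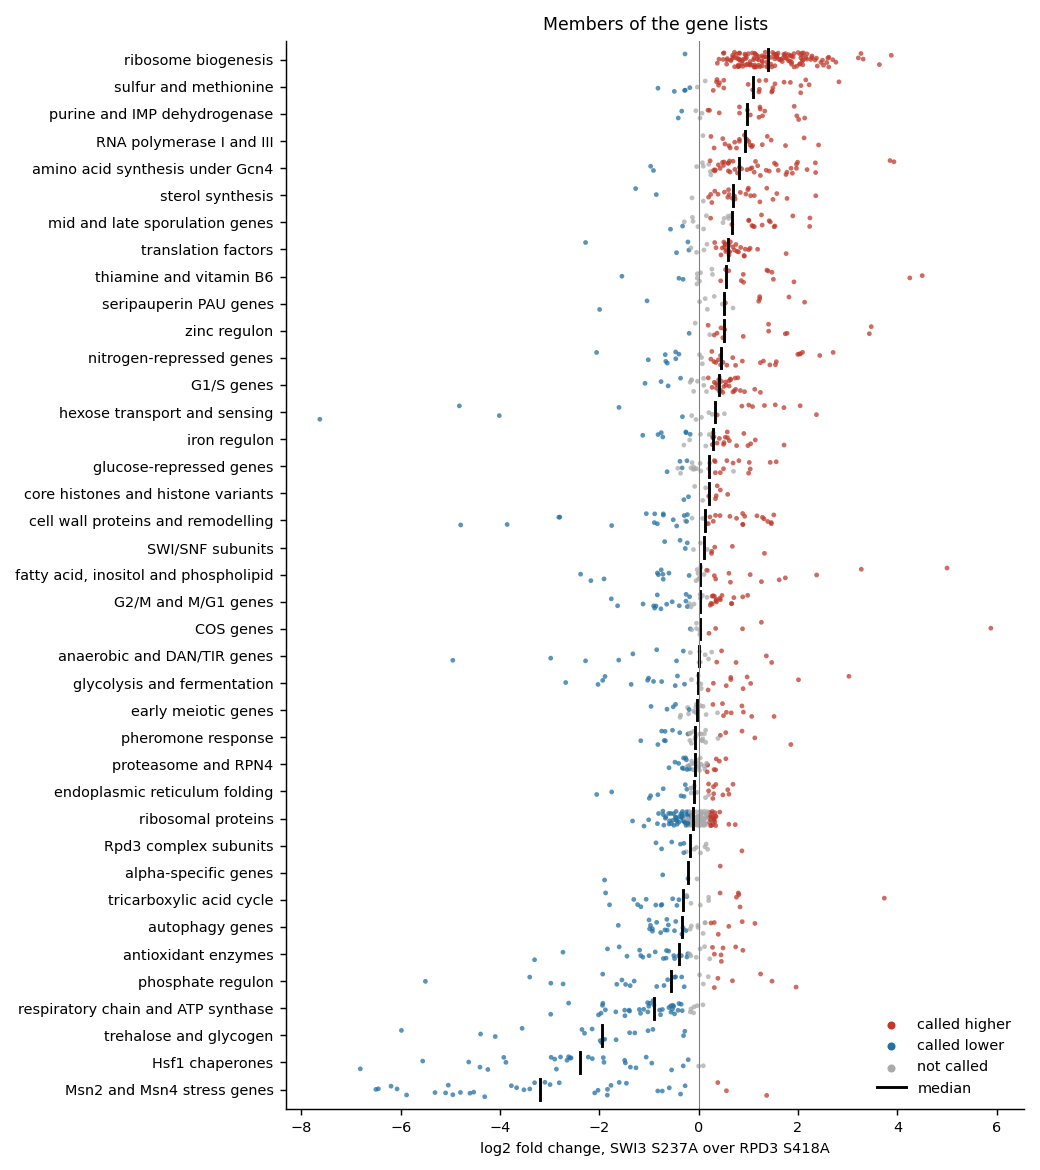
Log2 fold change (SWI3 S237A over RPD3 S418A) of each tested member of 39 gene lists, ordered by median (black bar); red points passed the test as higher, blue as lower, and grey did not pass. Ribosome biogenesis stands at the top with a median of 1.38, and the Msn2 and Msn4 stress genes at the bottom with -3.20.

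Metal and phosphate genes moved in different directions, and their counts stand beside 33.5% higher and 34.2% lower of all tested targets. Of 16 zinc regulon genes 13 were higher and 1 lower (median log2 0.50), and IZH4 and IZH1, membrane proteins linked to zinc homeostasis, differed most (log2 3.47 ± 0.09 and 3.43 ± 0.08). Their activator gene ZAP1 had 42, 37.5 and 42.9 CPM in SWI3 S237A and 16.2, 15.2 and 15 CPM in RPD3 S418A (log2 1.41 ± 0.08). Of 32 iron regulon genes 20 were higher and 7 lower (median log2 0.29). Phosphate genes were mostly lower, 17 of 26, with 6 higher (median log2 -0.56). The phosphate transporter gene PHO84 had 42.2, 45.6 and 41.2 CPM in SWI3 S237A and 376, 308 and 339 CPM in RPD3 S418A (log2 -2.98 ± 0.09), and SPL2, which lowers the uptake by low-affinity phosphate transporters, had 0.364, 0.538 and 0.749 CPM in SWI3 S237A, against 23.4, 24.8 and 26.9 CPM in RPD3 S418A (log2 -5.50 ± 0.18). Wild type varied widely for PHO84, from 36.2 to 129 CPM. The low-affinity transporter gene PHO90 was higher (log2 1.48 ± 0.11).

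Of 12 tested genes known from earlier work to need SWI/SNF, 5 were higher and 6 lower, beside 33.5% and 34.2% of all tested targets. The list holds genes that need it for induction and for repression, so no single direction follows from it. HO, the endonuclease of mating-type switching, the process after which the SWI genes are named, had 3.05, 3.8 and 3.87 CPM in SWI3 S237A and 49, 41 and 33.5 CPM in RPD3 S418A (log2 -3.52 ± 0.16, edgeR adjusted p = 1.08e-07). RPD3 KO had 97.7, 105.1 and 108 CPM and wild type 30, 50.7 and 51 CPM, so SWI3 S237A was the lowest of the 4 strains. SER3, a serine synthesis gene whose repression in rich medium is known to need SWI/SNF, had 499, 471 and 492 CPM in SWI3 S237A, against 33, 30.3 and 33.2 CPM in RPD3 S418A (log2 3.93 ± 0.07). RPD3 KO had 94.7, 82.2 and 95.6 CPM of SER3 and wild type 42.7, 26.7 and 30.7 CPM, both below SWI3 S237A. PHO5 was lower (log2 -1.38 ± 0.10), SUC2 was lower by less (log2 -0.33), and the cell-surface flocculin FLO11 was higher (log2 1.51).

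Cell cycle genes differed modestly, and the counts below stand beside 33.5% higher and 34.2% lower of all tested targets. In the G1/S list 27 of 40 genes were higher and 4 lower (median log2 0.42), with ribonucleotide reductase RNR1 at 327, 319 and 315 CPM in SWI3 S237A and 163, 138 and 108 CPM in RPD3 S418A (log2 1.24 ± 0.13). G2/M and M/G1 genes were balanced, 17 of 39 higher and 15 lower, and PCL9, a cyclin of early G1, was the lowest (log2 -1.76 ± 0.09). Of 11 histone genes 6 were higher and 2 lower, each by less than 2-fold. Proteasome genes were nearly level, 7 of 37 higher and 11 lower (median log2 -0.08).

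Meiotic genes, which Rpd3 represses through Ume6, had a median log2 of -0.04 among 27 early genes, and 0.05 without RPD3 S418A replicate 19. Of these 9 were higher, a share near the 33.5% of all tested targets, and 5 were lower, below their 34.2%. Middle and late sporulation genes were higher in 16 of 29 cases and lower in 2 (median log2 0.67), at low levels. SPS1, a sporulation kinase, had 4.69, 4.45 and 4.66 CPM in SWI3 S237A and 0.948, 0.972 and 1.02 CPM in RPD3 S418A (log2 2.24 ± 0.18). SPO20, a protein of the prospore membrane, had 7.16, 8.45 and 6.78 CPM in SWI3 S237A, against 1.76, 1.39 and 1.64 CPM in RPD3 S418A (log2 2.23 ± 0.18). With a filter of at least 10 CPM the median of that list was -0.01, a setting that tests fewer of its members.

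Antioxidant genes were lower in 20 of 33 cases and higher in 7 (median log2 -0.41), led by the cytosolic catalase CTT1 at 20.3, 21.4 and 24 CPM in SWI3 S237A and 228, 219 and 207 CPM in RPD3 S418A (log2 -3.31 ± 0.08). Autophagy genes were lower in 17 of 30 cases and higher in 6 (median log2 -0.33), and ATG29, part of the scaffold that starts autophagosomes, was the lowest (log2 -1.62 ± 0.10). Cell wall genes were divided, 18 of 38 higher and 16 lower. SED1, a major wall protein of stationary-phase cells, had 147, 168 and 152 CPM in SWI3 S237A, against 3949, 4470.4 and 4608 CPM in RPD3 S418A (log2 -4.79 ± 0.10), while the crosslinking enzyme gene CRH1 was higher (log2 1.46 ± 0.06). Endoplasmic reticulum folding genes, 10 of 28 in each direction, were near the 33.5% higher and 34.2% lower of all tested targets. Their Hsp70 gene KAR2 was lower (log2 -2.05 ± 0.06). The antioxidant, autophagy and cell wall counts stand beside the same shares.

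The counts of the vitamin, mating and anaerobic lists stand beside 33.5% higher and 34.2% lower of all tested targets. Of 23 thiamine and vitamin B6 genes 13 were higher and 3 lower, and 11 of the 23 share over 5% of their words. The thiamine transporter gene THI7 had 83, 80.7 and 83.5 CPM in SWI3 S237A, against 28.7, 29.2 and 29.9 CPM in RPD3 S418A. Of 30 pheromone response genes 5 were higher and 9 lower, with the gene of the G protein gamma subunit, STE18, at log2 -1.17 ± 0.10 and the cell wall protein gene FIG2 at log2 1.85 ± 0.09. Of 5 alpha-specific genes 1 was higher and 3 lower, MF(ALPHA)1 at log2 0.43 ± 0.06 and MF(ALPHA)2 at log2 -1.90 ± 0.08. In the anaerobic list 5 of 20 genes were higher and 8 lower, and CYC7, the hypoxic cytochrome c, had 5.49, 5.68 and 6.28 CPM in SWI3 S237A and 168, 175 and 201 CPM in RPD3 S418A (log2 -4.95 ± 0.10). Of 24 seripauperin (PAU) genes 14 passed the filter, 6 of them higher and 2 lower, and all of them share over 5% of their words.

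Promoter sequences of the moving genes differed in the motifs they held, as a description. The windows ran from 250 bases before to 50 bases after the start of the RefSeq gene on R64, and both strands were searched for 7 motifs. These were the stress response element core AGGGG (STRE), GATGAG (PAC core), AAAATTTT (RRPE core), GAANNTTC (heat shock element core), TGACTC (Gcn4 site core), GGCGGC (URS1 core) and TGCACCC (Aft1 site); the PAC and RRPE cores are known from ribosome biogenesis promoters. A promoter window was available for 5771 tested targets.

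PAC was found in 44.6% of promoters of targets at least 2-fold higher in SWI3 S237A, in 15.9% of those at least 2-fold lower, and in 20.1% of all tested. RRPE was found in 28.8%, 5.31% and 9.22% of the same sets. STRE showed the reverse, in 13.8%, 41.8% and 21.7%. In a window of 500 bases before the start, chosen after seeing the data, these shares were 29%, 58.6% and 34.3% for STRE, 52.2%, 25.7% and 28.1% for PAC, and 32.6%, 7.74% and 12.6% for RRPE, so each kept its order. Of 260 promoters that held both PAC and RRPE, 78.1% belonged to targets higher in SWI3 S237A, with a median log2 of 0.97. Of 4339 with neither, 28.7% were higher, with a median log2 of -0.07. Among 169 promoters with STRE 2 times or more, 58.0% belonged to lower targets (median log2 -0.42). The heat shock element core was near its background in both sets, at 12.7% of higher and 12.6% of lower targets, against 11.9% of all tested. It was found in 36.7% of the Hsf1 chaperone promoters, and the Gcn4 core in 54.9% of the promoters of the Gcn4 list, against 8.02% of all tested. Promoters of targets at least 2-fold higher held the Gcn4 core in 9.24% of cases, and those at least 2-fold lower in 6.19%.

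**Figure D4:**
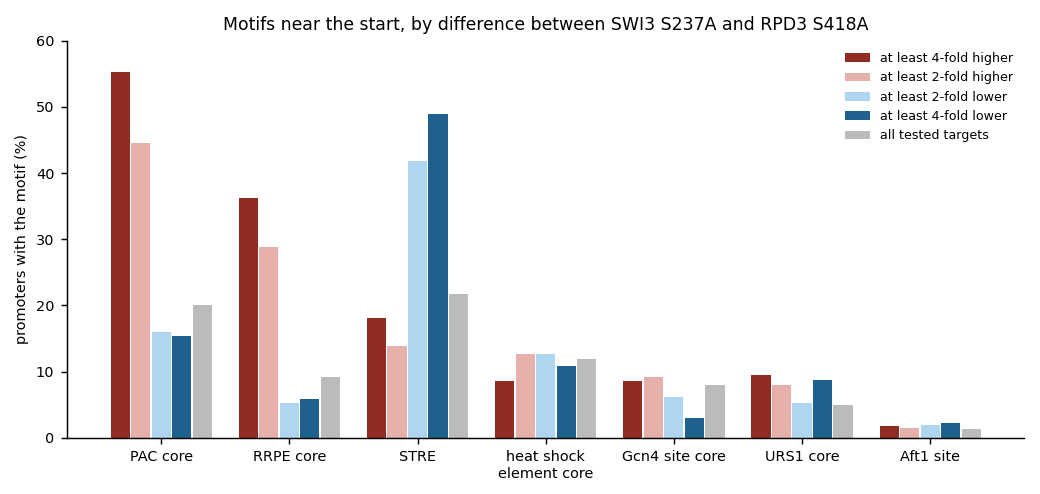
Percent of promoters (250 bases before to 50 after the start) that hold each motif on either strand, for targets that passed the test and were at least 4-fold or 2-fold higher (red), at least 2-fold or 4-fold lower (blue) in SWI3 S237A, and all tested targets (grey). PAC reaches 44.6% in the 2-fold higher set and STRE 41.8% in the 2-fold lower set, against 20.1% and 21.7% of all tested.

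The next 4 promoters show these motifs in the genes described above. They were chosen as 2 strongly lower stress genes with STRE and 2 higher ribosome biogenesis genes with PAC and RRPE, and the motif letters are in capitals on the coding strand, so CCCCT and CTCATC mark matches on the other strand.
HSP12, chrVI:107006-107305, plus strand: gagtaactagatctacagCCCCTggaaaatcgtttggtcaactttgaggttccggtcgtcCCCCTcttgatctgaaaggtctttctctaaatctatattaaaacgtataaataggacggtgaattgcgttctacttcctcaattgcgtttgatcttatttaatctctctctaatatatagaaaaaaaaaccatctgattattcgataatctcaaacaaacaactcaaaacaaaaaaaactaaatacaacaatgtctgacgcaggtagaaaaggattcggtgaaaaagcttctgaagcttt
HSP104, chrXII:88373-88672, plus strand: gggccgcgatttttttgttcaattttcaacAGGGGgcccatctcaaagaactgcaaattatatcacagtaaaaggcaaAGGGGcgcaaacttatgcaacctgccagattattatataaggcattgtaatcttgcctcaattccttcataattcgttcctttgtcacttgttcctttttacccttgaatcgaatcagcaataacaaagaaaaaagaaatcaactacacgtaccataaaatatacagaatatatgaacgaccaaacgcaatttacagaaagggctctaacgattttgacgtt
YTM1, chrXV:832563-832862, plus strand: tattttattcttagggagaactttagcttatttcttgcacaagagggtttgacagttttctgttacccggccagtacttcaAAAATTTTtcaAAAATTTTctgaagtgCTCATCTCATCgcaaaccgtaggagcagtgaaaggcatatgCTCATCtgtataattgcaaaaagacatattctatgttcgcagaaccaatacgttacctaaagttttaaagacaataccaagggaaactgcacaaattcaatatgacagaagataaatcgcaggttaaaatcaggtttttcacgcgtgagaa
NSR1, chrVII:807607-807906, minus strand: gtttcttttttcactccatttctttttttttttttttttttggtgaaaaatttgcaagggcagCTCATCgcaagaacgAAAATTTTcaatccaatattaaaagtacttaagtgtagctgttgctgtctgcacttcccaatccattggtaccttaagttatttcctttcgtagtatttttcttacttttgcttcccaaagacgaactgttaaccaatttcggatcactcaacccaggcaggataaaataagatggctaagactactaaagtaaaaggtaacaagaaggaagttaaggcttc
HSP12 and HSP104 each hold STRE 2 times in this window. YTM1 holds 5 matches, some of which overlap, and NSR1 holds 1 match of each kind. A match describes these letters and not a bound factor.

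The pair RPD3 KO and wild type shares no library with SWI3 S237A and RPD3 S418A and was set beside it. In the same kind of fit, 2077 of 6254 tested targets were higher in RPD3 KO than in wild type (33.2%) and 2108 were lower (33.7%). With scaling by total counts alone the split was 2510 higher and 1641 lower, a shift of 0.12 in the median log2. Wild type replicate 1 stood apart from replicates 9 and 17, with a log2 CPM correlation across targets of 0.989 and 0.987, against 0.997 between the other two.

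Most targets that passed in both comparisons had the same sign. Of 3050 such targets 2575 (84.4%) were higher in both or lower in both, and of 686 that differed at least 2-fold in both, 318 were higher in both and 283 lower in both. Across 6201 targets tested in both, log2 fold changes correlated with Pearson's r of 0.50 and Spearman's rho of 0.55, and with 0.52 and 0.56 when wild type replicate 1 was left out. Genes are not independent replicates, and no p is given. The ribosome biogenesis median log2 was 1.38 for SWI3 S237A over RPD3 S418A and 2.14 for RPD3 KO over wild type. For the Hsf1 chaperones these medians were -2.40 and -2.38, and for the Msn2 and Msn4 genes -3.20 and -2.62. For sulfur and methionine genes they were 1.09 and -0.27.

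**Figure D5:**
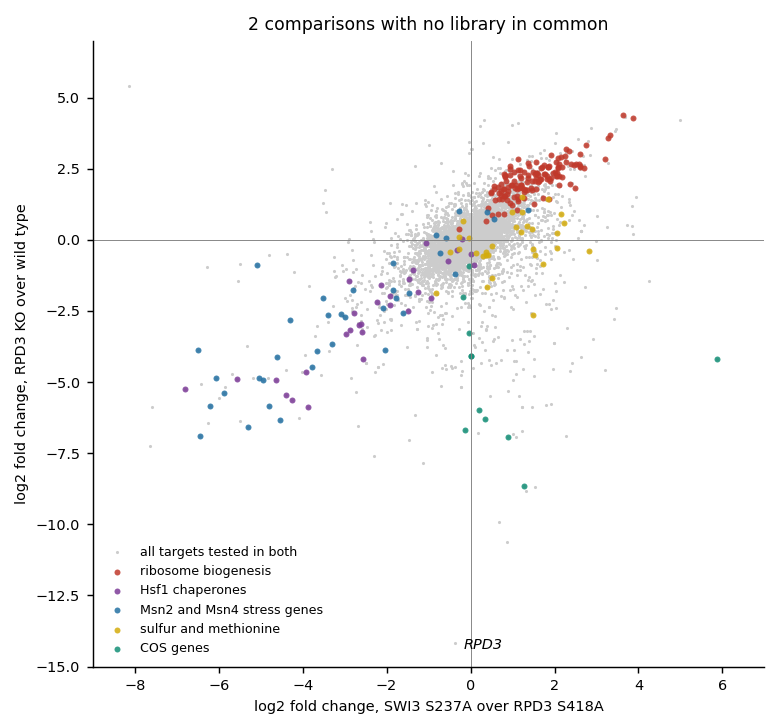
Log2 fold change of SWI3 S237A over RPD3 S418A (x) against that of RPD3 KO over wild type (y) for 6201 targets tested in both (grey), with 5 gene lists coloured. Ribosome biogenesis genes (red) lie high in both and chaperone and stress genes (purple, blue) low in both; COS genes (green) lie low on the y axis only, and RPD3 is at the bottom.

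Some genes had opposite signs in the 2 comparisons. At least 2-fold, 73 were higher in SWI3 S237A and lower in RPD3 KO, and 12 were lower in SWI3 S237A and higher in RPD3 KO. BNA2, the first enzyme of NAD synthesis from tryptophan, had 19.7, 21.6 and 20.7 CPM in SWI3 S237A and 1.8, 1.99 and 1.81 CPM in RPD3 S418A, a log2 fold change of 3.47 ± 0.12. It had 1.09, 1.09 and 0.554 CPM in RPD3 KO and 3.79, 4.86 and 6.48 CPM in wild type, so RPD3 KO was the lowest strain. HO was a reverse case, with log2 -3.52 ± 0.16 for SWI3 S237A over RPD3 S418A and 1.29 ± 0.20 for RPD3 KO over wild type. CLB1, a mitotic cyclin, had log2 -1.63 and 0.91 in the same order, and the second is under 2-fold, so CLB1 is not among the 12.

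Genes near chromosome ends had medians of opposite sign in the 2 comparisons. For SWI3 S237A over RPD3 S418A, the counts below stand beside 33.5% higher and 34.2% lower of all tested targets. Of 211 tested targets within 20 kb of an end, 117 were higher in SWI3 S237A and 41 lower, with a median log2 of 0.46, and for RPD3 KO over wild type their median was -1.88. Among the 96 of these with at most 5% of words shared with other genes, 49 were higher and 23 lower, with a median of 0.28. COS genes, a family of membrane proteins near the ends, had a median log2 of 0.02 for SWI3 S237A over RPD3 S418A, with 5 of 11 higher and 1 lower. COS10 had 23.1, 23.4 and 23.6 CPM in SWI3 S237A and 10.7, 10.2 and 8.41 CPM in RPD3 S418A (log2 1.26 ± 0.10). COS12 had 10.2, 7.03 and 6.7 CPM in SWI3 S237A and 0.0451, 0.0463 and 0.339 CPM in RPD3 S418A, where 2 libraries lay below the level of 3 counts (0.131 and 0.133 CPM), so its fold change is not given.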

How the data were processed

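Polyadenylated RNA of 12 libraries was sequenced, 3 per strain. The tools named are Trimmomatic 0.36 and kallisto 0.44.0 with build R64, per the submitters' processing notes. How kallisto treated strand is not stated there, so overlapping and antisense genes are uncertain. The deposited files give an estimated count and TPM for 6713 targets, per the file headers. The authors' tables of comparisons with wild type were not used.

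Estimated counts were rounded and fitted in R 4.3.3 with edgeR 4.0.16 (quasi-likelihood, robust dispersions, TMM scaling, default low-count filter) on the 6 libraries of SWI3 S237A and RPD3 S418A alone, and likewise on those of RPD3 KO and wild type. P-values were adjusted by Benjamini-Hochberg over all tested targets and called under 0.05. Standard errors came from the test statistic and fold change. TPM served only as an alternative for levels. Columns not used numbered 0. Targets were matched to the RefSeq R64 annotation (6026 of 6713), and 530 genes share over 5% of their 31-base words with other targets.

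The comparison, gene lists and motifs were chosen with earlier results of these data known, and lists were described by counts and medians. Genes named were RPD3, SWI3 and subunits of their complexes, the 10 largest rises and falls (adjusted p under 0.05, mean of at least 10 CPM, no overlap between strains, a gene name, at most 5% shared words), and in each list up to 4 called members with the smallest p in the main direction and 1 in the other. Other members named were chosen after their values were seen. On simulated counts with 200 targets changed, the SWI3 S237A against RPD3 S418A fit recovered 88.1%, 94% and 97% of 1.5-fold, 2-fold and 4-fold changes among 6202 targets, and 5.1% of its calls fell on unchanged targets. In the data 67.8% of tested targets were called. The simulation therefore does not show how scaling or the error rate behave when most targets differ. DESeq2 1.42.0 was an alternative. A promoter window of 500 bases and a block for runs of replicate numbers were added after seeing the data. Counts limit precision: 3 counts stand for 0.111 to 0.164 CPM, covering counting error only.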

Additional observations from a re-analysis of the deposited data

How the results depend on the processing

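Counts of called targets kept within 1.5 times under every alternative run (size factors, total counts alone, 2 filters, DESeq2, 1 fit over 12 libraries, each library left out, and the replicate block below): 3757 to 4417 targets were called and 913 to 1229 differed at least 2-fold. The SWI3 transcript, which did not pass, passed at log2 0.20 with total counts alone, and without single libraries it ran from 0.10 to 0.21. When single libraries were left out, 3 subunit genes that did not pass changed sign: RCO1 ran from -0.03 to 0.08, EAF3 from -0.15 to 0.07 and SNF6 from -0.10 to 0.15. Calls of COS6, COS7, RRP7, ZRT2, ARP7, ARP9, TRP1, STE3 and HTA1 were lost, and those of SAP30 and SIN3 gained, under at least 1 alternative. With TPM as deposited, which carries no TMM scaling, 153 of 224 log2 ratios of mean levels moved by more than the spread between libraries (median shift 0.17, at most 0.23), and that of COS6 came to 0.00. Of 28 motif shares 15 moved with no fold threshold or a window of 500 bases. The median log2 of targets near chromosome ends was 0.66 within 10 kb and 0.28 within 30 kb. Of list medians 555 stayed within the spread between libraries and 54 moved. The cause was not tested. The groups share no replicate numbers, but the numbers form runs (1 to 4, 9 to 12 and 17 to 20) that each hold 1 library of every strain, and the labels do not say what a run is. Deviations of run mates from their strain means correlated at 0.24, -0.00 and 0.14 across targets for SWI3 S237A and RPD3 S418A, and not every library correlated best with its own run. A replicate block by run, chosen after seeing the data, called 4417 targets, 4200 of them also called without it. The SWI3 transcript passed with this block, at log2 0.18 (edgeR adjusted p = 0.038), as did SIN3 and SAP30, and no named gene lost its call. Limits are that cultures behind the libraries are not described, and that RNA per cell cannot be told from the share of a transcript in the library.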

Other observations

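Genes of NAD synthesis, a list chosen after values were seen, were higher in SWI3 S237A for 6 of 11 members and lower for 0, beside 33.5% and 34.2% of all tested targets. BNA5, kynureninase, followed BNA2 with a log2 fold change of 1.51, and for RPD3 KO over wild type it had -3.38. In the Ehrlich pathway, which breaks down aromatic amino acids, 2 of 5 tested genes were higher and 3 lower, from log2 -6.28 to 3.02. Its transaminase gene ARO9 had 3.71, 4.11 and 3.95 CPM in SWI3 S237A and 298, 292 and 332 CPM in RPD3 S418A. The decarboxylase gene ARO10 was lower too (log2 -3.25). Of 10 retrograde response genes, which report on mitochondrial state, 4 were higher and 3 lower, near the shares of all tested targets. Among them DLD3 stood at log2 2.01 and PYC1 at log2 1.68. The retrotransposon frame YGR027W-A had 71.03, 78.3 and 83.9 CPM in SWI3 S237A and was listed at 0 in the RPD3 S418A, RPD3 KO and wild type libraries. All of its 31-base words occur in other targets, so its reads cannot be placed.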
